A study of Saccharomyces cerevisiae with 6 samples.

Results

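Ergosterol is the main sterol of yeast membranes. It is made from acetyl-CoA through mevalonate, farnesyl pyrophosphate, squalene and lanosterol, and several of the later steps need molecular oxygen and heme. Under anaerobic wine fermentation the cells therefore depend on sterols taken up from the medium, and a surplus is stored as steryl esters in lipid droplets. The transcription factors Upc2p and Ecm22p are known to activate the pathway when sterols are short.

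A set of 38 genes of sterol synthesis, storage, uptake and control was followed here, out of 6248 genes and unnamed probes on the array. Its members were chosen by gene symbol, and all 38 were read, each by a single probe. The set holds 23 enzymes or accessory proteins of synthesis (9 from acetyl-CoA to farnesyl pyrophosphate, 3 from there to lanosterol and 11 from lanosterol to ergosterol), 2 electron donors, 5 genes of ester formation and breakdown, 3 transcription factors and 5 genes of sterol uptake and lipid transport.

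The 6 one-color arrays compared 59A PDR8-S288c (3 cultures) with 59A wild type (3 cultures). 59A is a haploid *MAT*a derivative of the industrial wine strain EC1118, and 59A PDR8-S288c carries instead the *PDR8* allele of the laboratory strain S288c. *PDR8* encodes a transcription factor of pleiotropic drug resistance. By the methods, the exchanged strain also holds a resistance cassette with loxP sites in the terminator of *PDR8*, so any effect of the cassette cannot be told apart from that of the allele. Both strains fermented the same synthetic grape must, with its ergosterol and oleic acid reduced, under an airlock, and were sampled at 66 g/l CO2 released (70% of fermentation progress), in stationary phase. In such bulk RNA, fewer cells that express a gene and less RNA per cell cannot be told apart.

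Levels are given as normalized log2 intensity, on which 5.3 is background and 16 is saturation. They compare the same probe between cultures and not one gene with another. The median over the features with a value (6248, or 4190 on wild type replicate 3) lay between 8.06 and 8.08 on each array, and no sterol gene was within 1 log2 unit of background in the mean of either strain. The array of wild type replicate 3 has no value for 14 of the 38 genes, for which 3 cultures of 59A PDR8-S288c stand against 2 of the wild type. As a check of the strains, *QDR2*, a drug transporter gene controlled by Pdr8p, had a log2 fold change (LogFC, 59A PDR8-S288c minus wild type throughout) of 2.22 (SE 0.07, adjusted p = 1.41e-05, limma), and *PDR8* one of -0.49 (SE 0.05, adjusted p = 0.026, limma). The paper lists *PDR8* under its threshold of an adjusted p of 0.01, which *PDR8* did not pass in this fit. Whether the *PDR8* probe matches both alleles was not examined. The 4 *ASP3* genes (markers of S288c) and the 3 markers of *MAT*alpha cells read between 5.14 and 6.00 log2 units, and the 3 markers of *MAT*a cells between 9.94 and 11.46.

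The first question was whether the *PDR8* allele moved sterol genes. None of the 38 genes passed an adjusted p under 0.05 (limma, Benjamini-Hochberg over 6248 features), against 1.54% of all features (0.512% higher and 1.02% lower). Under the 0.01 that the methods use there were likewise 0 of 38, against 0.048% of all features. At an unadjusted p under 0.05 there were 2, against 18.1% of all features, of which 1 was higher (9.99% of all features) and 1 lower (8.1%). The LogFC ran from -0.99 for *CYB5* to 0.23 for *HES1*. It was below 0 for 32 of the 38 genes, against 47% of all features, and the median was -0.14, against 0.01 over all features. These 38 values are not independent of each other, since most of the genes moved together from culture to culture, as described next. Without wild type replicate 1 the median was -0.02 with 20 genes below 0. There, the 14 genes with no value in wild type replicate 3 rest on wild type replicate 2 alone. Without replicate 1 of 59A PDR8-S288c the median was -0.28 with 32 below 0. In the second case 14 genes, 13 of them lower, passed an unadjusted p under 0.05 and none an adjusted one (limma), against 1040 of all 6248 features, 504 of them lower. That setting leaves out the highest culture of the strain for most of these genes.

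**Figure D1:**
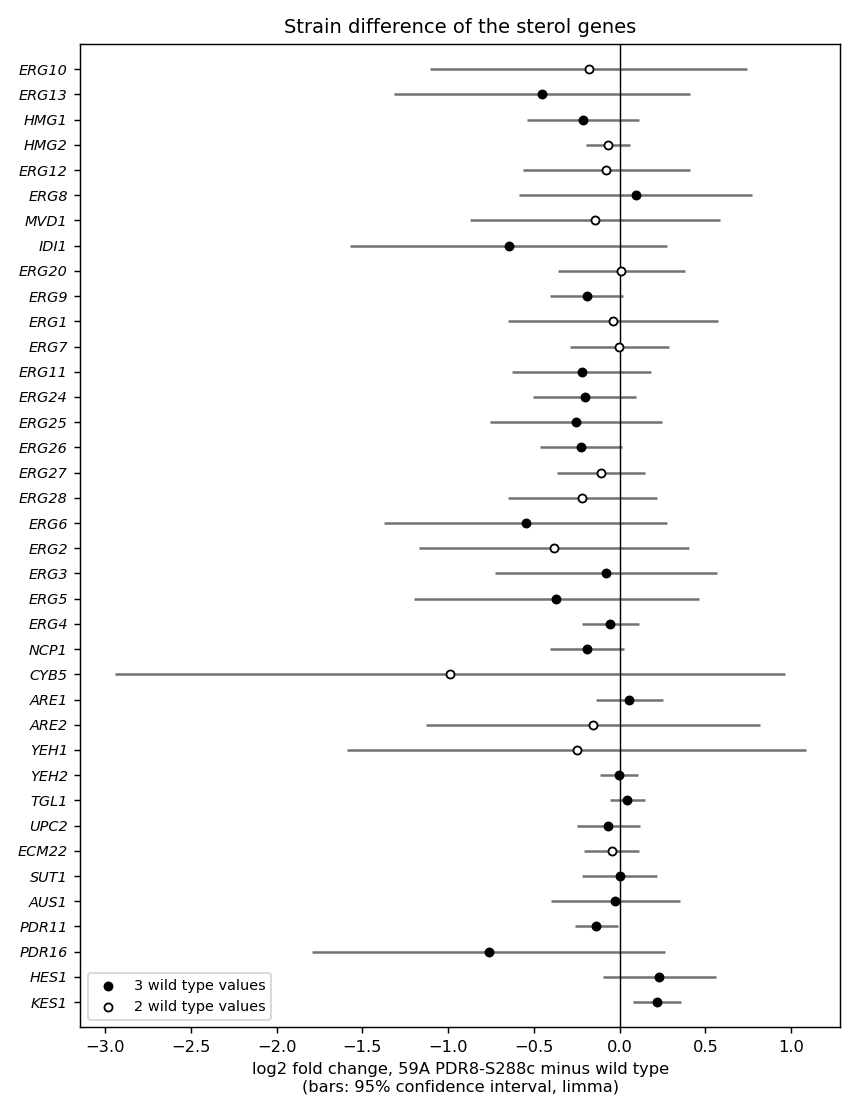
LogFC of each of the 38 sterol genes (x axis, log2 units, 59A PDR8-S288c minus wild type) with its 95% confidence interval from limma. Open symbols mark the 14 genes with 2 wild type values. The interval includes 0 for all genes except *PDR11* and *KES1*, and it is widest for *CYB5*.

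The intervals were wide because cultures of the same strain differed. The pooled standard deviation (SD) within strains had a median of 0.25 log2 units over the 38 genes, against 0.07 over all features. Among features measured on as many arrays, 24 of the 38 genes lay in the top 5% of this spread and 15 in the top 1%. *CYB5* had the largest spread of all 6248 features, with a pooled SD of 1.32 log2 units. The median half-width of the 95% confidence interval of the LogFC was 0.37 log2 units for the sterol genes, against 0.14 over all features. A strain difference of the size that these intervals span was therefore not detectable with 3 cultures per strain.

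The spread took the same form in most genes. Replicate 1 was the highest of the 59A PDR8-S288c cultures and replicate 2 the lowest of the wild type cultures in 25 of the 38 genes, against 17% of all features. This order was defined with the values of these genes known, so its share among them is a description and not a test. Replicate 3 of 59A PDR8-S288c was also the lowest of its strain in 24 of these 25. It was so in 27 of the 38 genes, against 1894 of 6248 features. For 12 of the 25 the wild type has 2 values, so that replicate 2 was compared with replicate 1 alone. Features with 2 wild type values are also part of the 17%. Among the 24 genes with 6 values, 13 had the order, and its share among all features with 6 values was not taken. Over the 24 sterol genes with 6 values, whatever their order, the median level was 10.49, 10.38 and 10.30 log2 units in replicates 1, 2 and 3 of 59A PDR8-S288c, against 10.79, 10.20 and 10.62 in replicates 1, 2 and 3 of the wild type. Over the 13 of these that have the order, where a split follows from the way they were picked, it was 11.57, 10.81 and 10.74 in 59A PDR8-S288c, against 11.66, 10.72 and 11.53 in the wild type. The order includes the 7 mevalonate genes other than *HMG1* and *HMG2*, all 3 genes of the squalene part, 10 of 11 late genes (all but *ERG4*), both electron donors, 2 of 5 ester genes and 1 of 5 uptake and transport genes, and none of the 3 transcription factors.

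**Figure D2:**
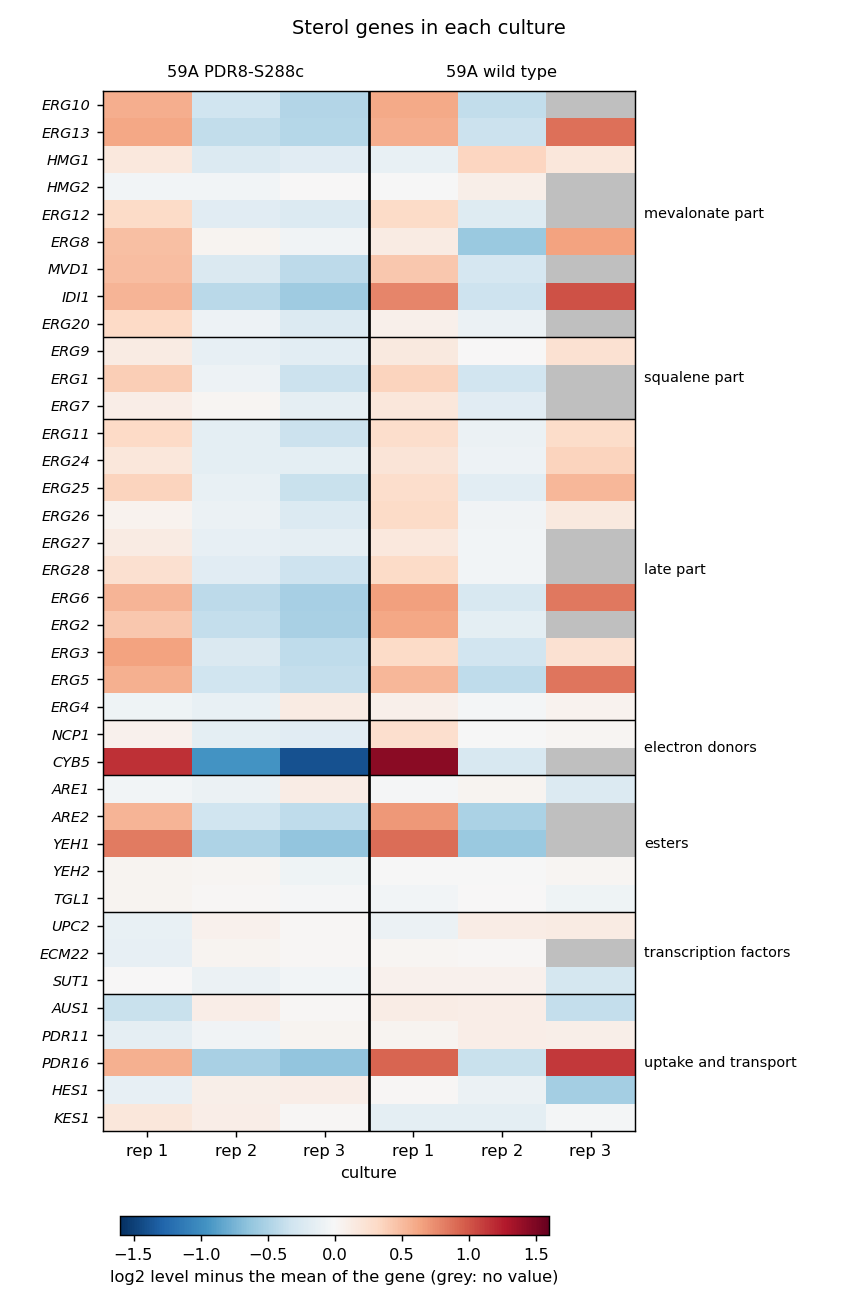
Level of each sterol gene in each culture, as log2 units above (red) or below (blue) the mean of that gene over the 5 arrays that read all genes, with genes in rows by role and cultures in columns. Grey marks no value on wild type replicate 3. Replicate 1 of 59A PDR8-S288c and replicate 1 of the wild type are red in most rows of synthesis, while *UPC2*, *ECM22*, *YEH2*, *TGL1* and *HMG2* are pale throughout. Wild type replicate 3 is grey in 10 of the 23 rows of synthesis and red, in part faintly, in most of the others.

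A range of at least 0.5 log2 units among the cultures of both strains was found in 16 of the 38 genes, against 1.07% of all features, and all 16 had the shared order. Of the 67 features with such ranges, 60 had this order, so it is not limited to sterol genes. The high cultures (replicate 1 of 59A PDR8-S288c, replicates 1 and 3 of the wild type) lay on subarrays 6, 8 and 2 of the slide, and the low ones on subarrays 7, 5 and 1. Culture and an even or odd subarray number cannot be told apart within a strain. The arrays of 59A PDR8-S288c lay on subarrays 5, 6 and 7, and those of the wild type on 1, 2 and 8. Strain and position on the slide can therefore largely not be told apart either. Within the even-numbered subarrays, where 1 culture of 59A PDR8-S288c stands against 2 of the wild type (against 1 for the 14 genes with no value in wild type replicate 3), the median difference of the 38 genes was -0.06 log2 units with 24 below 0. Within the odd-numbered ones, with 2 cultures against 1, it was -0.06 with 27 below 0. The cause of the difference between cultures was not tested.

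**Figure D3:**
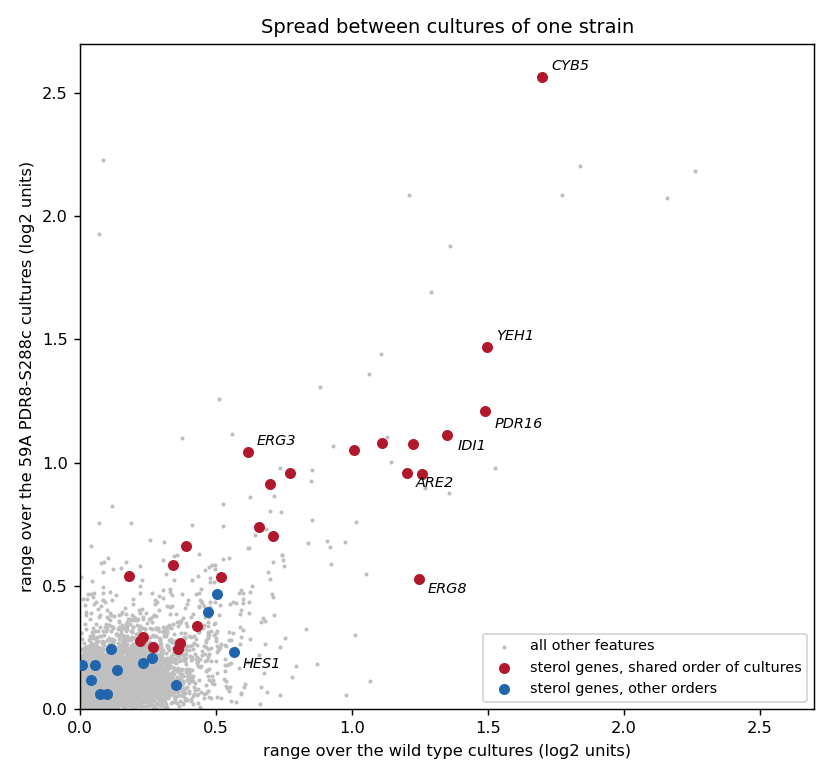
Range (highest minus lowest culture, log2 units) over the wild type cultures (x axis) and over the 59A PDR8-S288c cultures (y axis) for all 6248 features, with the 25 sterol genes of the shared order in red and the other 13 in blue. *CYB5* lies at 1.70 and 2.56, far from the bulk of the features near 0.1, while no blue point reaches 0.5 on both axes.

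In the first part of the pathway, *ERG10* encodes the thiolase that joins 2 acetyl-CoA and *ERG13* the HMG-CoA synthase that acts next. *ERG10* read 11.98, 11.08 and 10.93 log2 units in replicates 1, 2 and 3 of 59A PDR8-S288c, against 12.01 and 11.00 in wild type replicates 1 and 2 (LogFC -0.18, SE 0.39, adjusted p = 0.848, limma). *ERG13* read 9.90, 8.90 and 8.83 in 59A PDR8-S288c, against 9.88, 8.94 and 10.17 in the wild type (LogFC -0.45, SE 0.37, adjusted p = 0.562, limma). In both genes a high and a low culture of each strain lay about 1 log2 unit apart, and the strains overlapped.

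HMG-CoA reductase, the main point of control, has a pair of isozymes, and neither gene followed this order. *HMG1*, the isozyme linked to growth with oxygen, read 7.33, 6.93 and 6.98 in 59A PDR8-S288c, against 7.03, 7.50 and 7.34 in the wild type. Its highest wild type culture was replicate 2, the lowest one for most of the pathway. Its difference turned with the subarrays, at 0.14 within the even-numbered and -0.55 within the odd-numbered ones. *HMG2* varied little, from 10.73 to 10.79 in 59A PDR8-S288c, against 10.77 and 10.87 in the wild type. Its pooled SD of 0.05 log2 units was at the 37th percentile of features with as many values, while that of *HMG1*, at 0.23, was at the 97th.

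The 3 kinase and decarboxylase genes that turn mevalonate into isopentenyl pyrophosphate, *ERG12*, *ERG8* and *MVD1*, all had the shared order. *ERG8* read 10.39, 9.96 and 9.86 in 59A PDR8-S288c, against 10.05, 9.32 and 10.56 in the wild type, so its range was larger in the wild type (1.25) than in 59A PDR8-S288c (0.53). *IDI1*, the isomerase that follows, read 10.44, 9.47 and 9.33 in 59A PDR8-S288c, against 10.68, 9.58 and 10.92 in the wild type. With a LogFC of -0.65 (SE 0.40, adjusted p = 0.433, limma) it had the lowest value of the mevalonate part. Replicate 1 of 59A PDR8-S288c nevertheless stood far above wild type replicate 2. *ERG20*, the farnesyl pyrophosphate synthase gene, had a LogFC of 0.01 (SE 0.15).

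The squalene part (*ERG9*, squalene synthase; *ERG1*, squalene epoxidase; *ERG7*, lanosterol synthase) kept the order at a smaller size. Its pooled SD ran from 0.14 for *ERG9* to 0.41 for *ERG1*, the enzyme of the set that first uses oxygen, and its LogFC from -0.19 to 0.00.

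All 11 genes of the late part had a LogFC below 0 (47% of all features), with a median of -0.22. Within the even-numbered subarrays 9 of 11 were below 0 with a median of -0.10, and within the odd-numbered ones 9 of 11 with a median of -0.09. The lowest adjusted p among the 11 was 0.305 (limma). The widest of them between cultures were *ERG5*, *ERG6*, *ERG2* and *ERG3*. *ERG6*, the sterol methyltransferase, read 10.03, 9.07 and 8.95 in 59A PDR8-S288c, against 10.14, 9.22 and 10.33 in the wild type (LogFC -0.55, SE 0.35, adjusted p = 0.462, limma). *ERG5*, a desaturase of the side chain, read 11.70, 10.81 and 10.74 in 59A PDR8-S288c, against 11.66, 10.72 and 11.98 in the wild type (LogFC -0.37, SE 0.36). Both held a gap of about 0.9 log2 units or more between replicate 2 and the next culture of the wild type.

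*ERG2*, the sterol isomerase, read 12.15, 11.34 and 11.19 in 59A PDR8-S288c, against 12.33 and 11.55 in wild type replicates 1 and 2 (LogFC -0.38, SE 0.33). *ERG25*, the methyl sterol oxidase, read 13.27, 12.80 and 12.56 in 59A PDR8-S288c, against 13.20, 12.74 and 13.45 in the wild type (LogFC -0.26, SE 0.22). *ERG11*, *ERG24*, *ERG26*, *ERG27* and *ERG28* varied less, with a pooled SD between 0.16 and 0.29 log2 units. *ERG4*, the reductase of the last step, read 10.95, 10.90 and 11.15 in 59A PDR8-S288c, against 11.10, 10.99 and 11.07 in the wild type. Within the wild type it was lowest in replicate 2, as all 11 late genes were, but within 59A PDR8-S288c it was highest in replicate 3.

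The late steps draw electrons from *NCP1*, the NADPH-dependent reductase gene, and from *CYB5*, whose product is a small heme protein that also serves lipid desaturation. *CYB5* read 10.32, 8.20 and 7.76 in 59A PDR8-S288c, against 10.60 and 8.90 in wild type replicates 1 and 2. Its LogFC of -0.99 was the lowest of the set, but its SE of 0.81 and 95% confidence interval from -2.94 to 0.96 leave the sign undetermined (adjusted p = 0.567, limma). The LogFC was -0.14 without wild type replicate 1, where that of *PDR16* was lower at -0.58, and -1.84 without wild type replicate 2. Each of these values of *CYB5* rests on 1 wild type culture. The range among the 3 cultures of 59A PDR8-S288c (2.56) was more than the difference between the strains. *NCP1* followed the same order within 0.25 log2 units in 59A PDR8-S288c and 0.27 in the wild type.

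Sterols are esterified by the acyltransferases of *ARE1* and *ARE2* and released by the hydrolases of *YEH1*, *YEH2* and *TGL1*. One gene of each step varied with the pathway and the others did not. *ARE2*, the main isozyme with oxygen, read 8.18, 7.31 and 7.22 in 59A PDR8-S288c, against 8.32 and 7.12 in wild type replicates 1 and 2 (LogFC -0.15, SE 0.41). *ARE1*, the main isozyme without oxygen or heme, read 10.86, 10.81 and 11.02 in 59A PDR8-S288c, against 10.89, 10.95 and 10.68 in the wild type. *YEH1* read 9.96, 8.63 and 8.49 in 59A PDR8-S288c, against 10.03 and 8.53 in wild type replicates 1 and 2 (LogFC -0.25, SE 0.56). *YEH2* and *TGL1* were among the steadiest of the set, with a pooled SD of 0.05 and 0.03 log2 units.

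**Figure D4:**
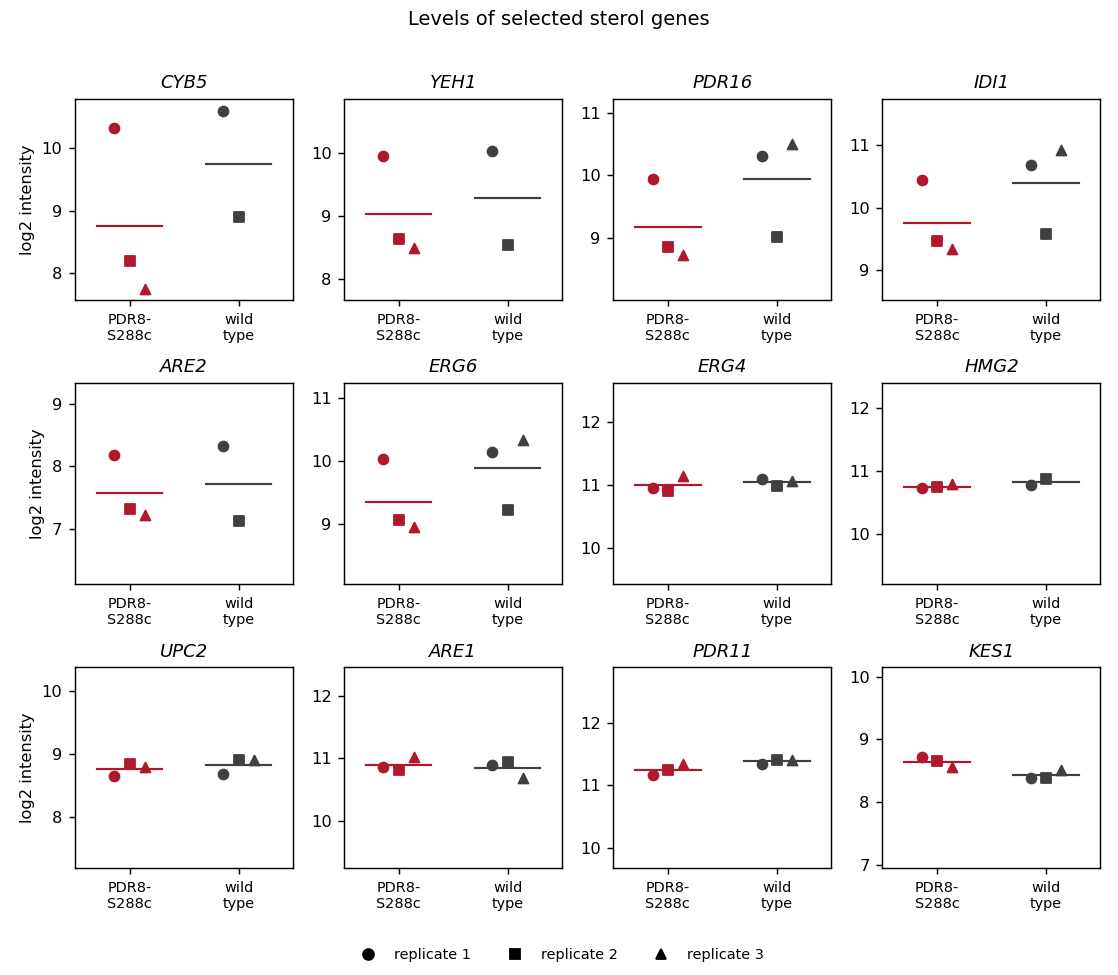
Log2 intensity of 12 sterol genes in each culture of 59A PDR8-S288c (red) and wild type (dark grey), with the mean as a line and the replicate number as the symbol. Every panel spans the same number of log2 units on its own scale. *CYB5*, *YEH1*, *PDR16*, *IDI1*, *ARE2* and *ERG6* are split within each strain, while the other 6 are not.

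The transcription factor genes did not vary with the genes they are known to activate. *UPC2* read 8.65, 8.84 and 8.80 in 59A PDR8-S288c, against 8.68, 8.90 and 8.91 in the wild type (LogFC -0.07, SE 0.08, adjusted p = 0.706, limma). *ECM22* read 9.07, 9.25 and 9.23 in 59A PDR8-S288c, against 9.23 in both wild type cultures measured (LogFC -0.05, SE 0.07). Replicate 1 of 59A PDR8-S288c, the highest of its strain for 30 of the 38 genes, was the lowest of its strain for both. *SUT1*, which promotes sterol uptake, read 6.47, 6.38 and 6.43 in 59A PDR8-S288c, against 6.53, 6.55 and 6.19 in the wild type. Its LogFC was 0.00, with a 95% confidence interval from -0.22 to 0.22.

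Sterol uptake under anaerobiosis relies on the ABC transporters Aus1p and Pdr11p. *AUS1* read 10.54, 11.00 and 10.90 in 59A PDR8-S288c, against 11.01, 10.99 and 10.51 in the wild type (LogFC -0.03, SE 0.16). *PDR11* read 11.16, 11.25 and 11.34 in 59A PDR8-S288c, against 11.35, 11.41 and 11.40 in the wild type, with all cultures of 59A PDR8-S288c below all of the wild type by a narrow margin (LogFC -0.14, SE 0.05, adjusted p = 0.252, limma). Such a lower, non-overlapping set of values was found in 1 of the 38 genes, against 11.8% of all features. Both directions together made 2 of 38, against 28.1%.

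*PDR16*, a phosphatidylinositol transfer protein gene that belongs to the Pdr1p regulon, varied like the enzymes of synthesis. It read 9.94, 8.85 and 8.73 in 59A PDR8-S288c, against 10.30, 9.01 and 10.50 in the wild type. Its LogFC was -0.76 (SE 0.44, adjusted p = 0.408, limma). In the 2 groups of subarrays the difference was -0.46 (even-numbered) and -0.22 (odd-numbered).

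The oxysterol-binding protein genes *HES1* and *KES1* had the highest LogFC of the transport genes. *HES1* read 12.91, 13.13 and 13.14 in 59A PDR8-S288c, against 13.05, 12.93 and 12.49 in the wild type (LogFC 0.23, SE 0.14, adjusted p = 0.432, limma). Without wild type replicate 3 its LogFC was 0.064. With slide position in the fit it was 0.0025, which sets 59A PDR8-S288c against wild type replicate 1 alone. *KES1*, given in full only after its values were seen, read 8.72, 8.65 and 8.56 in 59A PDR8-S288c, against 8.38, 8.39 and 8.51 in the wild type. Each culture of 59A PDR8-S288c exceeded each wild type culture (LogFC 0.22, SE 0.06, adjusted p = 0.117, limma). That adjusted p was the lowest of the 38, and a higher, non-overlapping set of values was found in 1 of the 38 genes, against 16.3% of all features. For genes without overlap, such as *PDR11* and *KES1*, an exact two-sided permutation test must give p = 0.1. That is the smallest that 3 cultures against 3 allow, so it adds nothing to the lack of overlap.

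The study linked *ERG4*, *ERG8*, *HMG1* and *PDR11* in segregants to the locus that holds both *HAP1* and *PDR8*, whereas the exchange here was made at *PDR8*, cassette included. From its own comparison of these strains, the paper names only *QDR2* and *YLR179C* among the linked genes as controlled by *PDR8*. It proposes *HAP1* for the others, which was not tested here. None of the 4 passed an adjusted p under 0.05 (limma), against 1.54% of all features. *PDR11* alone passed an unadjusted p under 0.05, against 18.1% of all features. Counts among 4 genes are too small to set them apart from all features. The 95% confidence interval of the LogFC was from -0.22 to 0.11 for *ERG4*, from -0.54 to 0.11 for *HMG1* and from -0.26 to -0.01 for *PDR11*. For *ERG8* it was the widest, from -0.58 to 0.77. A change in either direction remained possible for *ERG4*, *HMG1* and *ERG8*. *HAP1* itself, an activator that responds to heme, read between 11.19 and 11.35 in 59A PDR8-S288c, against 11.14 to 11.22 in the wild type.

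Of 58 related genes outside the set, 53 were measured, and none passed an adjusted p under 0.05 (limma), while 9 passed an unadjusted p under 0.05, against 18.1% of all features. Their median LogFC was 0.00 and the median pooled SD 0.072 log2 units, against 0.068 over all features. The shared order was found in 12 of the 53, against 17% of all features, so that neither count stood far from that of all features. It was wide in *ROX1* and *MOT3*, repressors of hypoxic genes, and these were the 2 related genes with a range of at least 0.5 log2 units in both strains. *ROX1* read 8.81, 6.95 and 6.72 in 59A PDR8-S288c, against 8.74, 7.63 and 9.40 in the wild type (LogFC -1.09, SE 0.61, adjusted p = 0.395, limma). *MOT3* read 8.59, 7.62 and 7.77 in 59A PDR8-S288c, against 8.74, 7.98 and 9.51 in the wild type (LogFC -0.75, SE 0.39, adjusted p = 0.359, limma). Both were high in the cultures in which the enzymes of synthesis were high.

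*DAP1*, a heme-binding protein gene that assists Erg11p, also had the order and read 8.97, 8.77 and 8.48 in 59A PDR8-S288c, against 9.21, 8.91 and 9.51 in the wild type (LogFC -0.47, SE 0.17, adjusted p = 0.195, limma). *HEM13*, a heme synthesis gene that Rox1p represses, ran the opposite way. It read 12.59, 12.83 and 12.96 in 59A PDR8-S288c, against 12.74, 12.82 and 12.15 in the wild type (LogFC 0.22, SE 0.18). Such an inverted order, lowest in replicate 1 of 59A PDR8-S288c and highest in replicate 2 of the wild type, was found in 22.3% of all features and in 2 of the 38 sterol genes, *HMG2* and *PDR11*.

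**Figure D5:**
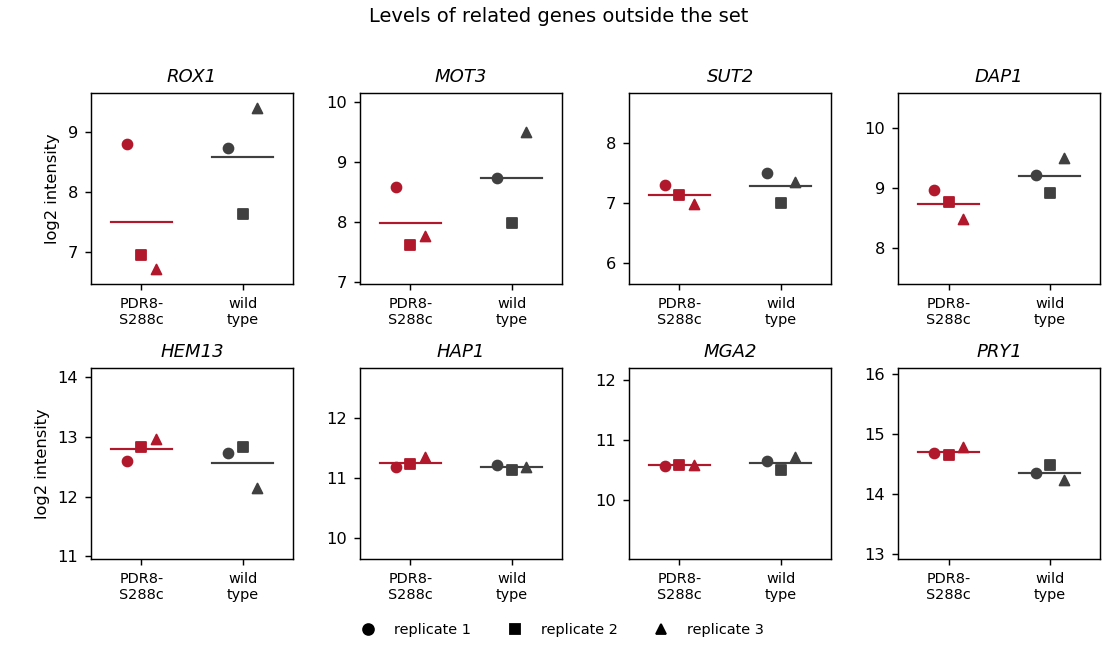
Log2 intensity of 8 genes outside the set in each culture of 59A PDR8-S288c (red) and wild type (dark grey), with the mean as a line and the replicate number as the symbol, all panels spanning the same number of log2 units. *ROX1* and *MOT3* are split within each strain and *HEM13* is inverted, while *HAP1* and *MGA2* are nearly level.

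The other lists were steadier. In the isoprenoid branches *RER2*, a dolichol synthesis gene, had the largest LogFC (0.17, SE 0.05, adjusted p = 0.147, limma), followed by *CDC43* (0.13, SE 0.06), a subunit gene of a protein prenyltransferase. Among genes of HMG-CoA reductase turnover these were *HRD1* (0.11, SE 0.06), the ubiquitin ligase gene, and *USA1* (-0.09, SE 0.07). Among genes of sterol acetylation and transport, *PRY1*, which encodes a secreted sterol-binding protein, had the lowest adjusted p of the related genes. It read 14.69, 14.65 and 14.78 in 59A PDR8-S288c, against 14.36, 14.48 and 14.24 in the wild type, with no overlap (LogFC 0.35, SE 0.07, adjusted p = 0.0593, limma). *NPC2*, a vacuolar sterol transfer gene, had a LogFC of -0.24 (SE 0.10). In the lists of lipid droplet genes and of farnesol and squalene neighbors, no LogFC passed an unadjusted p under 0.05 apart from that of *YJU3*, a monoglyceride lipase gene (0.11, SE 0.05). The next were *LPP1* (-0.07, SE 0.05), a lipid phosphatase gene, *PET10* (-0.10, SE 0.11), a lipid droplet protein gene, and *TGL3* (0.05, SE 0.06), a triacylglycerol lipase gene. *OLE1*, the fatty acid desaturase gene, read 15.95 to 15.97 in 59A PDR8-S288c, against 15.98 to 15.99 in the wild type, at saturation, so that a difference could not be read.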

How the data were processed

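RNA of 6 cultures was hybridized to Agilent 8x15k one-color arrays. The authors took the spot-median intensity, normalized it by the quantile method (R 2.13.1, limma) and deposited log2 values. By the methods this was done over 55 arrays, and whether these 6 were among them is not given in the sources used here. The deposited values were used unscaled. One column holds no value for 2066 of 6271 probes. Of the probes, 5220 carry 1 gene symbol and 1051 are unnamed here. The brightest probe stood for a gene.

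The difference between strains came from lmFit and eBayes of limma 3.58.1 (R 4.3.3) without a block, tested on simulated data first. The design text calls the cultures biological replicates. Benjamini-Hochberg adjustment ran over 6248 features. Replicates are named by the sample titles; in 59A PDR8-S288c, 2 descriptions give other numbers. Plots were drawn with matplotlib 3.10.9. The precision is limited by 3 arrays per strain.

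The members and all lists were chosen with earlier results of these data known. Every culture's value is given for the 10 genes with the largest LogFC, the 10 with the largest spread, transcription factors and transporters. It is also given for the genes linked in segregants to the *HAP1* and *PDR8* locus. The LogFC is given for the 2 related genes per list with the largest change. Promoter motifs were planned, but promoter sequences were not used here. Of the related genes, 5 (*LAM4*, *LAM5*, *LAM6*, *ERG29*, *LDH1*) have no named probe and were not analysed here. The alternatives were median centring, a further quantile normalization, leaving out dim probes, array weights, a trended robust variance, averaging a gene's probes, complete features only, the replicate number as a block, slide position and leaving out each array. The values within even-numbered and odd-numbered subarrays, and the shared order of cultures under other normalizations, were added after seeing the data.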

Additional observations from a re-analysis of the deposited data

How the results depend on the processing

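No sterol gene passed an adjusted p under 0.05 in the fit reported or in any of 16 alternatives (limma), and the median LogFC stayed below 0, from -0.28 to -0.02. The shared order of cultures was found in 25 sterol genes after median centring and after a further quantile normalization, as in the values reported. Array medians already lay between 8.06 and 8.08 and the values were already quantile-normalized, so these settings could hardly change it. Settings that moved a count by over 1.5 times were as follows, and the cause was not tested. Sterol genes past an unadjusted p under 0.05 numbered 4 with array weights, against 1265 of 6248 features. They numbered 1 with a further quantile normalization and 1 with a trended robust variance, against 1120 and 1099 features. Without single arrays they numbered 1 to 14. Leaving out 59A PDR8-S288c replicate 1 gave 14 (13 lower), replicate 2 of that strain 1, and wild type replicate 2 10 (9 lower). The counts over all 6248 features were then 1040, 808 and 1079. Leaving out wild type replicate 2 leaves 1 wild type value for 14 of the sterol genes. Of the related genes, 1 (*PRY1*, LogFC 0.32) passed with array weights. Of all features, 96 passed an adjusted p under 0.05 as reported (32 higher, 64 lower). Array weights gave 194 (93 higher, 101 lower), a trended robust variance 152, and slide position 6. Single arrays left out gave 3 to 90: the count was 3 when 59A PDR8-S288c replicate 1, its replicate 2 or wild type replicate 2 was missing, 48 for 59A PDR8-S288c replicate 3 and 13 for wild type replicate 1. At an unadjusted p under 0.05 there were 1130 of 6248 features, 747 of the 4190 measured on all 6 arrays, and 595 of 6248 with slide position.

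Whether the replicate numbers pair the cultures was not settled. Over 4190 features the deviations of same-numbered cultures from their strain mean correlated at 0.17, 0.34 and -0.43 by the titles. By the descriptions these were -0.05, -0.69 and -0.43. Over the 24 sterol genes with 6 values they were 0.54, 0.83 and -0.83 by the titles, and -0.48, -0.90 and -0.83 by the descriptions. Deviations from a strain mean are tied to each other, so the 3 values of a numbering are not independent. With the block of the titles 8 sterol genes passed an unadjusted p under 0.05, against 1051 of 6248 features, and 19 features an adjusted one. With the block of the descriptions 3 features passed an adjusted p. Both blocks leave out replicate 3 of 59A PDR8-S288c for the 14 genes without its partner, and turned the sign of *ERG10* (0.020), *ARE2* (0.021) and *YEH1* (0.016).

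Some LogFC that passed no threshold changed sign. With slide position, which rests on 1 wild type culture for its far end, *HMG1* was 0.044 and *UPC2* 0.084. Without single arrays *ERG10* ran from -0.68 to 0.32, *ERG8* from -0.24 to 0.39, *ERG2* from -0.77 to 0.0039 and *ARE2* from -0.75 to 0.45. *YEH1* ran from -0.9996 to 0.50, *ECM22* from -0.080 to 0.0092, *SUT1* from -0.12 to 0.060 and *AUS1* from -0.19 to 0.11. For *ERG10*, *ERG2*, *ARE2* and *YEH1* both ends rest on 1 wild type culture.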

Other observations

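A range of at least 1 log2 unit within both strains together with the order of cultures seen in the sterol genes was found in 17 features (0.272% of all). Of these, 7 are sterol genes (*CYB5*, *YEH1*, *PDR16*, *IDI1*, *ERG6*, *ERG13* and *ERG10*), 7 are other named genes and 3 have no gene name here. The 7 other named genes, chosen after their values were seen, were *ROX1*, *ECM13*, *IZH1*, *HYP2*, *JID1*, *NSR1* and *YGR035C*. *IZH1*, a membrane protein gene of zinc homeostasis, read 11.90, 9.86 and 9.70 log2 units in replicates 1, 2 and 3 of 59A PDR8-S288c, against 12.20, 10.36 and 12.20 in the wild type. *ECM13* read 8.82, 6.63 and 6.65 in 59A PDR8-S288c, against 9.27, 7.21 and 9.47 in the wild type. *HYP2*, which encodes the translation factor eIF5A, read 12.02, 10.67 and 10.58 in 59A PDR8-S288c, against 11.81, 11.19 and 12.30 in the wild type.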
